A study of Mus musculus with 8 samples.

Results

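The 9 genes described here encode the liver's machinery for making and storing glucose, together with 1 of its transcriptional coactivators. They were chosen by gene symbol, as G6pc, Pck1, Fbp1, Pcx, Slc37a4, Gys2, Pygl, Gbe1 and Ppargc1a, among 19751 gene symbols named on the array. All 9 were found, on 11 probes, and every one of these probes was well above background on all 8 arrays. RNA of whole liver from 8 mice was hybridised to 1-colour Agilent mouse arrays, 1 array per mouse. The groups were 2 AKP::Keap1 males, 2 AKP males, 2 AKP::Keap1 females and 2 AKP females. All 8 mice expressed an activated oncogene and p53 R172H in the liver, and the AKP::Keap1 mice also carried a deletion of Keap1. No mouse without the oncogene and the p53 allele was analysed here, so that every comparison is between livers that carry both. The labels call the expression liver-specific, and the driver of the recombination, the ages and the feeding state are not given in the sources used here.

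Gluconeogenesis builds glucose from lactate, alanine and glycerol, and in the fasted state the liver releases it to the blood. Pyruvate carboxylase (Pcx) makes oxaloacetate from pyruvate in mitochondria, phosphoenolpyruvate carboxykinase (Pck1) turns oxaloacetate into phosphoenolpyruvate, and fructose bisphosphatase (Fbp1) removes a phosphate further up the route. Glucose 6-phosphate then enters the endoplasmic reticulum through its transporter (Slc37a4) and is hydrolysed there by the catalytic subunit of glucose 6-phosphatase (G6pc). This last step also serves glucose from glycogen, which liver glycogen synthase (Gys2) and the branching enzyme (Gbe1) build and liver glycogen phosphorylase (Pygl) breaks down. Ppargc1a is a coactivator that glucagon induces through cAMP and CREB and that raises the transcription of Pck1 and G6pc together with FOXO1 and HNF4A.

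Because Pck1, G6pc and Ppargc1a are the textbook targets of cAMP in this pathway, their promoters are shown beside that of Gbe1, the member that was higher in AKP::Keap1 livers. Each line gives the 250 bases before the RefSeq gene start on the gene's strand, from assembly GRCm38.p6. Capitals mark matches on either strand to TGACGT or TTACGT, forms of the cAMP response core, or to TGACNNNGC, the core of the antioxidant response element that Nrf2 binds.
Pck1, chr2:173152823-173153072, plus strand: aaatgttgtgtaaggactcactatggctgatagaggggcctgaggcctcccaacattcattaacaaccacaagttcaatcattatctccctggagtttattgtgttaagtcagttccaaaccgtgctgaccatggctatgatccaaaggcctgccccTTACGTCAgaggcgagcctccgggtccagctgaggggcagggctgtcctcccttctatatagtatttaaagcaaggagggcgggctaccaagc
G6pc, chr11:101367466-101367715, plus strand: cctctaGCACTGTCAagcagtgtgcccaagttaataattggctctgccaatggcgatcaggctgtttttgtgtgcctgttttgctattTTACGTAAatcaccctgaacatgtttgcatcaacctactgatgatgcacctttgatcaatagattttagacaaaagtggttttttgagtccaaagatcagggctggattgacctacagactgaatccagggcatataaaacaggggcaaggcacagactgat
Ppargc1a, chr5:51567726-51567975, minus strand: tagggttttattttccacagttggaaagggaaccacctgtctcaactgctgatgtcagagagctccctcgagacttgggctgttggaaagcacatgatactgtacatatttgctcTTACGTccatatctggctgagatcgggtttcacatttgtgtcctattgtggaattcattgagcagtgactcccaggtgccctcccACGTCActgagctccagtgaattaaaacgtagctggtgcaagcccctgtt
Gbe1, chr16:70313699-70313948, plus strand: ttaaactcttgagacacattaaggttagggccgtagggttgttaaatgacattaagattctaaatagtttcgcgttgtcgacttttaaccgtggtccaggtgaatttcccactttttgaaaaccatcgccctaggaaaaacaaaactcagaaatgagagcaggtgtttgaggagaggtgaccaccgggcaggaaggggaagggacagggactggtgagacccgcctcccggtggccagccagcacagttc
Entries existed for 8 of the 9 members, with 11 promoters in all. Pck1 held TGACGT (read as ACGTCA) starting at position -91 from the gene start, and an overlapping TTACGT at -93, since both motifs share ACGT. Ppargc1a held TGACGT at -50 and TTACGT at -135, and the first of the 3 Slc37a4 promoters held them at -61 and -134, the first of which lies at -214 in the second promoter. G6pc held TTACGT on both strands, from -162 and -160, and an antioxidant response core at -244, while Fbp1 held such a core at -56. The 4 Gbe1, Pygl and Pcx promoters held none of these letters, nor did any of the 11 hold the FOXO core TGTTTAC. Among 32851 promoters of the same length, TGACGT was found in 6.47%, TTACGT in 2.4%, TGACNNNGC in 10.2% and TGTTTAC in 3.17%. These matches are a description of letters, and binding was not measured.

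Levels below are log2 of the processed signal minus the array's 75th percentile, so that 1 unit is a 2-fold difference and 0 is the signal of the array's 75th percentile spot. A level belongs to its probe and is compared across mice only. Differences are AKP::Keap1 minus AKP unless said otherwise, errors of differences are standard errors of the limma fit, and calls were made where limma's two-sided p, adjusted by Benjamini and Hochberg over all 15844 genes tested, was below 0.05. Each group has 2 mice. The p-values rest on 1 estimate of the spread within groups, shared by all 4 groups and moderated by limma over all genes. Because each group was on 1 slide, this spread holds no difference between slides. The alternative with the slide as a random block therefore fitted genotype and sex as additive effects, not 1 mean per group. In that fit a difference of the genotype effect between the sexes counts as spread between slides. The targeted gene and an Nrf2 target were read as a check of the genotype labels. The probe of Keap1, which marks Nrf2 for destruction, read -1.46 and -1.51 in AKP::Keap1 males, 1.74 and 2.05 in AKP males, -0.64 and -0.85 in AKP::Keap1 females and 1.55 and 1.63 in AKP females. Whether it covers the deleted exons is not known here. Nqo1, a target of Nrf2, rose by 4.17 ± 0.22 (adjusted p = 0.00033). Between 65.7% and 70.7% of spots were well above background and no spot was saturated. The 4 slides held 1 group each, with males scanned on 1 day and females on another, so that slide and group cannot be told apart.

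Averaged over both sexes, 6 of the 9 genes were lower in AKP::Keap1 livers (Ppargc1a, Gys2, Pck1, Pygl, Fbp1 and Slc37a4), 1 was higher (Gbe1) and 2 were not called (G6pc and Pcx). The falls ranged from 3.66-fold for Ppargc1a to 1.36-fold for Slc37a4. This stands against a background of 39% of all genes called in this contrast, 17.4% lower and 21.7% higher. The median difference of the 9 was -0.48, against -0.0036 over all genes tested. For 4 genes, Pck1, Fbp1, Pygl and Ppargc1a, all 4 AKP::Keap1 mice were below all 4 AKP mice, as was the case for 11.5% of all genes. These bulk values cannot tell fewer cells of a type from less RNA per cell.

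**Figure D1:**
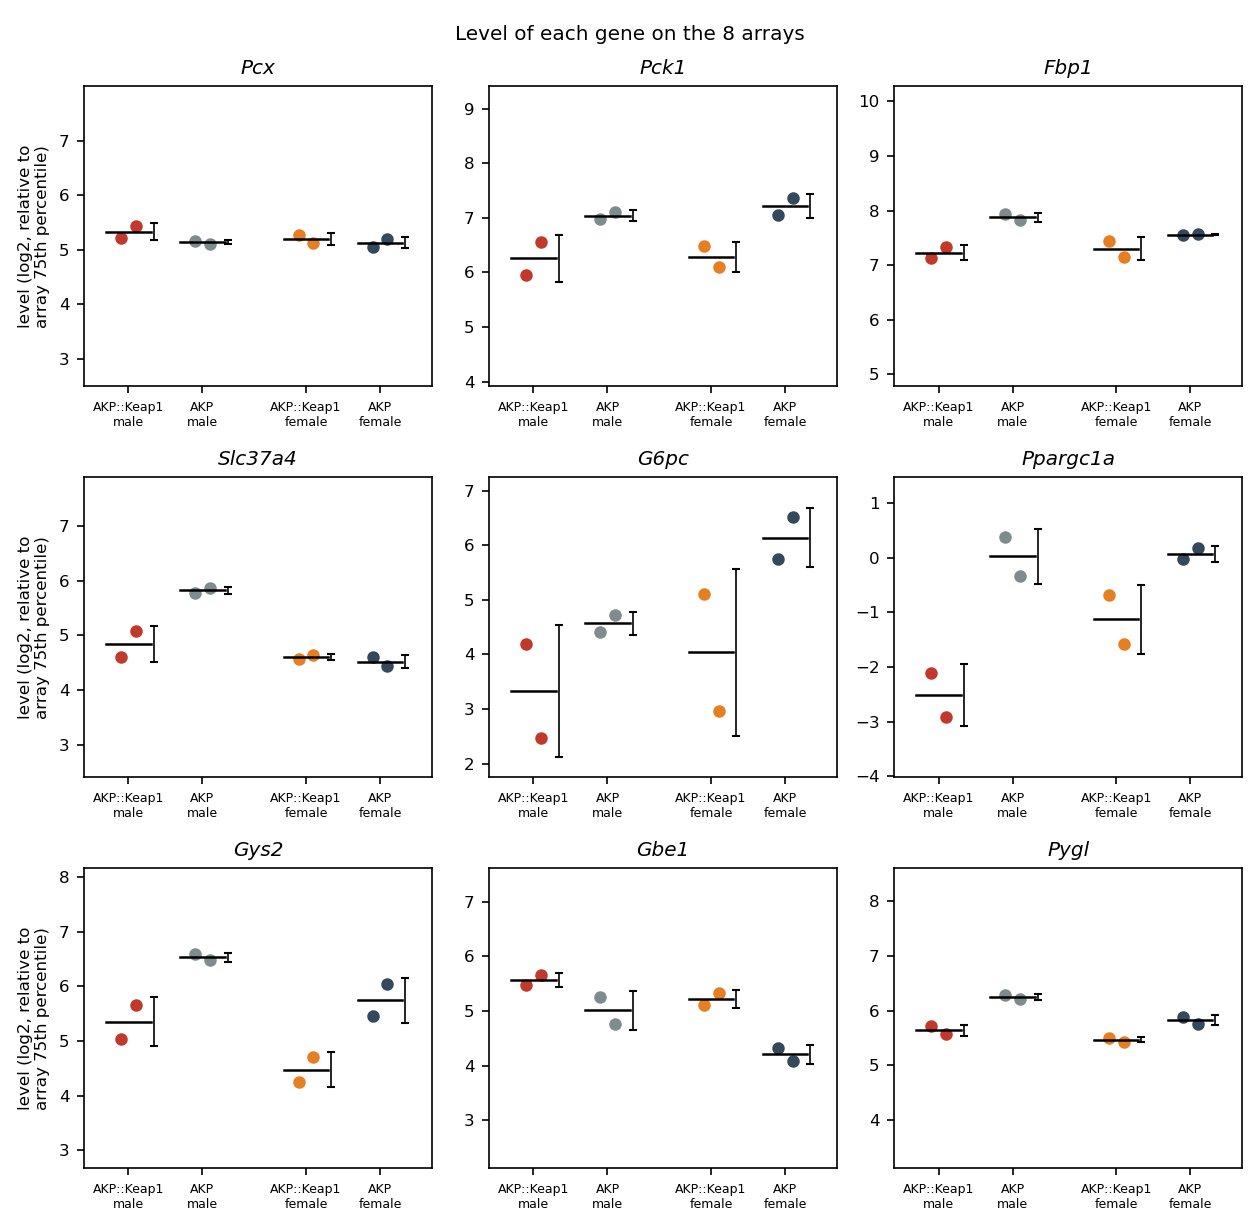
Level of each gene (vertical axes, log2 of the processed signal relative to the array's 75th percentile, all panels spanning the same number of log2 units) in the 4 groups. Points are single mice, horizontal lines are group means and the bars beside them are SD (n = 2 mice per group); Ppargc1a lies lower in all 4 AKP::Keap1 mice, G6pc is split within both AKP::Keap1 groups, and Pcx spans the narrowest range.

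Pcx, which opens the route from pyruvate, had the smallest differences among the mice at the main scaling. It read 5.22 and 5.44 in AKP::Keap1 males, 5.16 and 5.11 in AKP males, 5.27 and 5.11 in AKP::Keap1 females and 5.06 and 5.20 in AKP females. The 4 group means spanned 0.20, the narrowest range of the 9 genes, and no neighbouring groups in their order were separate. The genotype difference was 0.13 ± 0.096 (limma, adjusted p = 0.32), with a 95% interval of -0.10 to 0.36. Its sign turned to -0.11 (adjusted p = 0.36) when arrays were set to their medians, whereas Pcx was called higher with unscaled values (0.44, adjusted p = 0.020) and with arrays scaled to hepatocyte markers (0.59, adjusted p = 0.0086). In males it was also called higher under these (0.72 and 0.87) and after quantile normalization (0.54, adjusted p = 0.030).

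Pck1, which commits oxaloacetate to glucose, was lower in every AKP::Keap1 mouse than in any AKP mouse. Its levels were 5.96 and 6.56 in AKP::Keap1 males, 6.97 and 7.11 in AKP males, 6.48 and 6.09 in AKP::Keap1 females and 7.06 and 7.37 in AKP females. The genotypes were therefore apart in both sexes, while the ranges of males and females of the same genotype overlapped. Pck1 fell by 0.85 ± 0.18 on the log2 scale (adjusted p = 0.012), with -0.78 ± 0.25 in males (adjusted p = 0.059) and -0.93 ± 0.25 in females (adjusted p = 0.045). The female call was lost in 11 of 19 alternatives, among them each of the 4 fits that left out 1 female (adjusted p 0.066 to 0.18). About 4.04% of all genes had a lower genotype difference than Pck1.

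Fbp1, the bisphosphatase of the cytosolic route, was 7.13 and 7.33 in AKP::Keap1 males, 7.94 and 7.82 in AKP males, 7.45 and 7.16 in AKP::Keap1 females and 7.55 and 7.57 in AKP females. The AKP::Keap1 mice were again below all AKP mice, but the gap in females was small, and AKP females were themselves below AKP males. The fall was 0.45 ± 0.10 (adjusted p = 0.018) over both sexes and 0.65 ± 0.15 in males (adjusted p = 0.026). In females the difference was -0.25 ± 0.15 (adjusted p = 0.26). The call over both sexes was lost without AKP male 1 (adjusted p = 0.057), without AKP::Keap1 male 1 (adjusted p = 0.061) and without AKP female 2 (adjusted p = 0.053). With the slide as a random block its adjusted p was 0.075, and after quantile normalization the difference was -0.18 (adjusted p = 0.092).

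Slc37a4, the glucose 6-phosphate carrier, had 1 group apart from the other 3. Its levels were 4.61 and 5.07 in AKP::Keap1 males, 5.78 and 5.86 in AKP males, 4.57 and 4.65 in AKP::Keap1 females and 4.60 and 4.44 in AKP females. AKP males stood 0.98 above the next group mean, and the other 3 groups overlapped with their neighbours. Accordingly Slc37a4 fell by 0.98 ± 0.18 in males (adjusted p = 0.014), a 1.98-fold fall, whereas the female difference was 0.09 ± 0.18 (adjusted p = 0.74). The test of this difference between the sexes gave 1.07 ± 0.25 (adjusted p = 0.086) and was called at an adjusted p of 0.044 with normexp background correction or when arrays were set to their medians. In every fit without 1 mouse it was not called. The mean over both sexes, -0.45 ± 0.12 (adjusted p = 0.033), lost its call without 7 of the 8 mice in turn, AKP::Keap1 male 2 being the exception. With the slide as a random block it was not called either (adjusted p = 0.24). That fit counts the difference of Slc37a4 between the sexes as spread between slides, so this loss does not show a dependence on the slide.

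G6pc, which completes glucose release, had the widest spread of the 9 genes. It read 4.18 and 2.47 in AKP::Keap1 males, 4.42 and 4.72 in AKP males, 5.12 and 2.96 in AKP::Keap1 females and 5.76 and 6.53 in AKP females. Within each sex both AKP::Keap1 mice were below both AKP mice, but 1 mouse of each AKP::Keap1 pair was far lower than its partner (SD 1.21 in males and 1.52 in females), and the genotypes overlapped across sexes. The difference was -1.67 ± 0.58 (adjusted p = 0.063), a 3.19-fold lower mean that was not called, with a 95% interval of -3.08 to -0.26. Only 0.461% of all genes had a lower difference, so G6pc combined a large mean difference with a large spread. It was called under 6 of the 19 alternatives, including those without AKP::Keap1 male 1 (-2.10, adjusted p = 0.046) or AKP::Keap1 female 1 (-2.21, adjusted p = 0.021), the higher mouse of each pair. Without the lower mice it was -1.24 (AKP::Keap1 male 2 left out) and -1.13 (AKP::Keap1 female 2 left out), and the male difference alone, -1.24 ± 0.82, became -0.38 without AKP::Keap1 male 2.

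Ppargc1a, the coactivator of Pck1 and G6pc, showed the largest called fall of the 9. Its levels were -2.11 and -2.92 in AKP::Keap1 males, 0.38 and -0.33 in AKP males, -0.68 and -1.58 in AKP::Keap1 females and -0.03 and 0.18 in AKP females. All 4 AKP::Keap1 mice were below all 4 AKP mice, AKP males and females overlapped, and the AKP::Keap1 males were below the AKP::Keap1 females. Ppargc1a fell by 1.87 ± 0.29 (adjusted p = 0.0052), and the second probe gave -1.50 ± 0.25. In males the fall was 2.54 ± 0.41 (adjusted p = 0.011), a 5.82-fold fall, although without AKP male 1 (adjusted p = 0.052) or AKP::Keap1 male 2 (adjusted p = 0.060) it was not called. In females the difference was -1.20 ± 0.41 (adjusted p = 0.086), and the test between the sexes gave 1.34 ± 0.59 (adjusted p = 0.23). The call over both sexes held in all 19 alternatives, with differences from -2.12 to -1.41.

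Gys2, the enzyme that lengthens liver glycogen, fell in both sexes. It read 5.04 and 5.67 in AKP::Keap1 males, 6.59 and 6.48 in AKP males, 4.25 and 4.70 in AKP::Keap1 females and 5.45 and 6.04 in AKP females. Each sex was fully split by genotype, and the genotypes met only through AKP::Keap1 male 2 and AKP female 1. The fall was 1.23 ± 0.21 (adjusted p = 0.0068), or 2.34-fold. It was 1.18 ± 0.30 in males (adjusted p = 0.032) and 1.27 ± 0.30 in females (adjusted p = 0.031). The second Gys2 probe had 1.70 and 2.23 in AKP::Keap1 males, 3.54 and 3.59 in AKP males, 1.71 and 2.11 in AKP::Keap1 females and 2.97 and 3.62 in AKP females, a difference of -1.49 ± 0.20 without overlap of the genotypes. The call over both sexes held in all 19 alternatives. The call in males was lost in 7 of them, among them each of the 4 fits that left out 1 male (adjusted p 0.058 to 0.13). The call in females was lost in 8, among them the fits without AKP female 2, AKP::Keap1 female 1 or AKP::Keap1 female 2 (adjusted p 0.062 to 0.13).

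Gbe1, which adds the branches to glycogen, was the only one of the 9 called higher at the main scaling. Its levels were 5.48 and 5.66 in AKP::Keap1 males, 5.27 and 4.76 in AKP males, 5.10 and 5.34 in AKP::Keap1 females and 4.33 and 4.08 in AKP females. Both AKP::Keap1 mice of each sex were above both AKP mice of that sex, with the AKP females lowest of all. Gbe1 rose by 0.79 ± 0.15 (adjusted p = 0.0091), a 1.72-fold rise called in all 19 alternatives. In females the rise was 1.02 ± 0.21 (adjusted p = 0.022), not called without AKP female 1, AKP female 2 or AKP::Keap1 female 2 (adjusted p 0.054 to 0.11), and in males the difference was 0.56 ± 0.21 (adjusted p = 0.089). Its rise against the fall of Gys2 put the 2 glycogen-building enzymes in opposite directions.

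Pygl, which frees glucose from glycogen, had small steps and little spread. It was 5.71 and 5.57 in AKP::Keap1 males, 6.29 and 6.21 in AKP males, 5.50 and 5.43 in AKP::Keap1 females and 5.89 and 5.76 in AKP females. All 4 groups were separate, with AKP::Keap1 females lowest and AKP males highest. Pygl fell by 0.48 ± 0.085 (adjusted p = 0.0075), a 1.40-fold fall, and by 0.61 ± 0.12 in males (adjusted p = 0.018), which was not called without any 1 of the 4 males (adjusted p 0.057 to 0.099). The female difference was -0.36 ± 0.12 (adjusted p = 0.082).

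**Figure D2:**
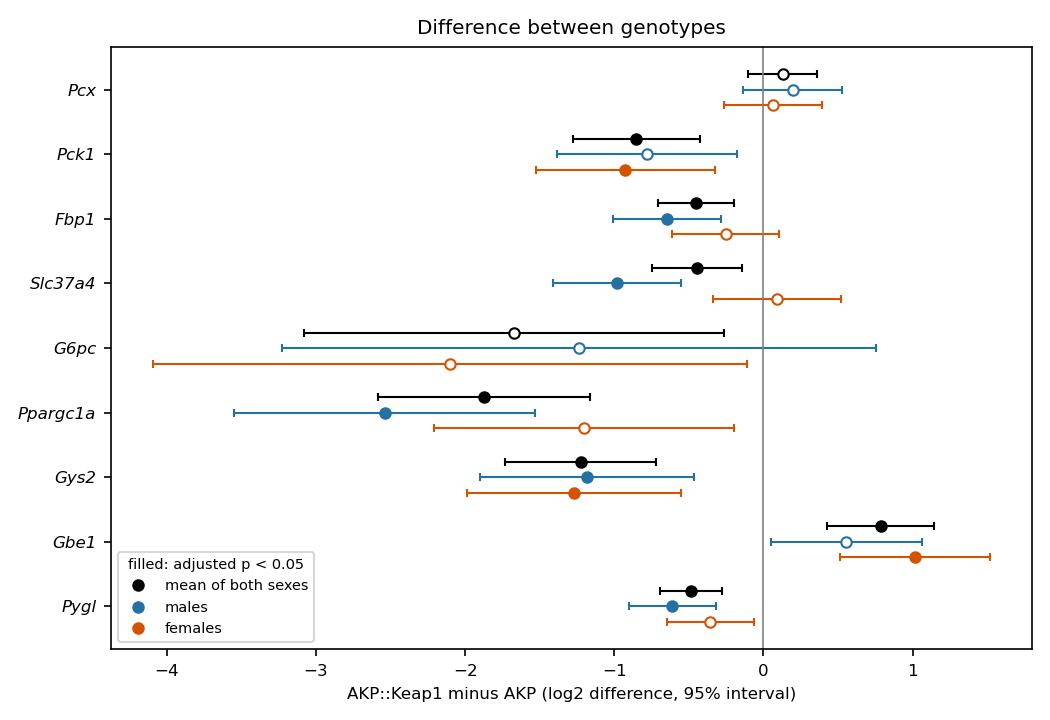
Difference between genotypes (horizontal axis, AKP::Keap1 minus AKP, log2) for each gene, as the mean of both sexes (black), in males (blue) and in females (orange), with 95% intervals from the limma fit. Filled points were called at an adjusted p below 0.05; Gbe1 is the only gene called higher, and Slc37a4 lies at -0.98 in males and 0.09 in females.

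Within males 5 of the 9 genes were lower (Ppargc1a, Gys2, Slc37a4, Fbp1 and Pygl) and none was higher, where 29% of all genes were called and 12.5% were lower. In this contrast the 2 mice of each genotype were apart for all 9 genes, 7 lower and 2 higher, but so they were for 73.4% of all genes. Among the 1584 brightest genes, which hold 8 of the 9, 26.7% were lower in males. The split of all genes in males, 2606 higher and 1981 lower, became 1728 and 6463 with arrays set to their medians, and 5410 and 170 with unscaled values. Within females 2 were lower (Gys2 and Pck1) and 1 was higher (Gbe1), against 21.5% called, 8.9% lower and 12.6% higher. There the genotypes were apart for 7 of the 9 genes, as for 65.1% of all genes. The male count changed with single mice: without 1 of the 4 males in turn between 0 and 1 of the 9 was called, and after quantile normalization 2 were higher (Pcx and Gbe1) and 1 was lower (Ppargc1a). The count in females was between 0 and 2 without 1 of the 4 females in turn, and 1 without either AKP male, since all 8 arrays share 1 estimate of the spread. Of the 9 genes 0 were called for the genotype by sex interaction by limma, in which 1.67% of all genes were called. Slc37a4 alone had an unadjusted p under 0.05 there, of 0.0046, and was the 1 gene called with normexp background correction or arrays set to their medians.

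Between the sexes, as the mean over both genotypes, 3 genes were lower in females than in males, against 21.5% of all genes called and 11.6% lower. They were Slc37a4 (-0.77 ± 0.12, adjusted p = 0.014), Gys2 (-0.83 ± 0.21, adjusted p = 0.039) and Gbe1 (-0.58 ± 0.15, adjusted p = 0.040). For no gene of the 9 did the arrays of the 2 sexes separate, as they did for 13.2% of all genes. The second Gys2 probe gave -0.16 ± 0.20, so that the sex difference of Gys2 rests on 1 probe. With the slide as a random block none of the 3 was called (adjusted p 0.12 to 0.15), and leaving out single mice ended the calls of Gys2 in 6 of 8 fits and of Gbe1 in 7 of 8.

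The genes of other cell types and of hepatocytes moved with genotype in the same livers. None of the 16 hepatocyte markers was higher and 6 were lower, with a median of -0.36, where 17.4% of all genes were lower. In males 9 of them were lower and in females 1, against 12.5% and 8.9% of all genes. Their summed level, in multiples of the array's 75th percentile, was 2418 to 2510 in AKP::Keap1 males, 3448 to 4030 in AKP males, 2267 to 2978 in AKP::Keap1 females and 2827 to 2940 in AKP females. Of 10 bile duct markers 9 were higher, with a median of 3.29 and sums of 68.3 to 80.4 in AKP::Keap1 males, 7.46 to 8.54 in AKP males, 36.9 to 76.6 in AKP::Keap1 females and 3.12 to 8.63 in AKP females. Among them Ggt1 (5.06) was well above background on only 4 of the 8 arrays and Cldn4 (2.23) on 6. Both were dim in AKP livers, so their place in this count rests partly on the livers where they were high. Neutrophil markers were higher for 4 of 5 (sums 29.2 to 37.9 in AKP::Keap1 males, 4.61 to 5.97 in AKP males, 28.3 to 28.7 in AKP::Keap1 females and 5.36 to 7.84 in AKP females). Higher calls were also made for 4 of 7 macrophage and 2 of 6 lymphocyte markers. Of the called lymphocyte markers, Cd79a was well above background on only 5 arrays. Of 6 endothelial markers 4 were lower, among them Kdr (-0.29, adjusted p = 0.040), whose second probe gave 0.36. Of all genes 21.7% were higher and 17.4% lower in this contrast, and in females none of the lymphocyte markers was called. Of 8 stellate cell markers 5 were higher and 1, Dcn, was lower (-0.40, adjusted p = 0.045), and their sums averaged 44.8 in AKP::Keap1 males, 52.8 in AKP males, 54.1 in AKP::Keap1 females and 43.2 in AKP females. Among kidney and gut markers, tissues that also make glucose, Slc12a1 and Cdx2 did not pass the filter on dim probes, and of the other 4, 2 were higher and 1 was lower.

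The arrays can also be scaled to the hepatocyte markers, whose own genotype differences varied, with -1.23 for Cps1 and -0.30 for Cyp2e1. The other Cyp2e1 probe gave -0.75. Hepatocyte content itself was not measured. With each array set to the mean of its 16 hepatocyte markers, an alternative chosen after the data were seen, Ppargc1a (-1.41, adjusted p = 0.0032) and Gys2 (-0.76, adjusted p = 0.039) were still lower and Gbe1 (1.25, adjusted p = 0.0019) was still higher. Pcx was then higher as well (0.59, adjusted p = 0.0086). As means of both sexes, Fbp1 (0.013), Slc37a4 (0.018) and Pygl (-0.021) were level with the hepatocyte markers. For Slc37a4 this mean joined opposite differences, -0.31 in males and 0.34 in females. Pck1 lay at -0.39 (adjusted p = 0.10) and G6pc at -1.21 (adjusted p = 0.077). This scaling moved the median of all genes to 0.46, and a shift to the array median moved it to -0.25. The part of bile duct and immune cells in these differences was not tested. Brightness also moved with genotype: 8 of the 9 genes belong to the 1584 brightest genes, in which the median difference was -0.16 and 21.3% of genes were lower and 6.44% higher. Ppargc1a was dimmer, in a group of 1584 genes of like brightness with a median of -0.014.

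**Figure D3:**
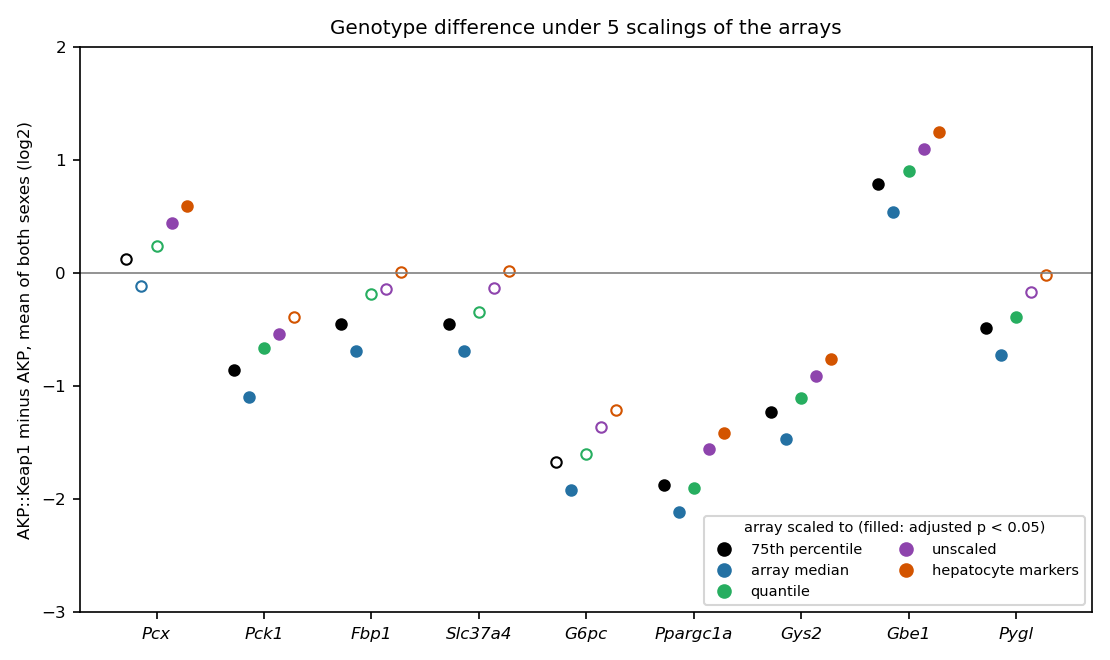
Genotype difference (vertical axis, AKP::Keap1 minus AKP, mean of both sexes, log2) of each gene with the arrays scaled to their 75th percentile, to their median, by quantiles, left unscaled, or scaled to the hepatocyte markers. Filled points were called at an adjusted p below 0.05; Ppargc1a and Gys2 stay below 0 and Gbe1 above 0 under all 5, while Fbp1, Slc37a4 and Pygl reach 0 with the hepatocyte markers.

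Around these 9, the other genes of the pathway were taken from 4 lists. Of 25 tested genes that feed or share the gluconeogenic route, 8 were lower and 1 was higher, against 17.4% and 21.7% of all genes. The median of the list was -0.29. The lower ones included Slc2a2, the liver's main glucose transporter, which read 3.13 and 3.25 in AKP::Keap1 males, 4.37 and 4.27 in AKP males, 2.57 and 3.03 in AKP::Keap1 females and 3.94 and 3.78 in AKP females. Its levels were apart by genotype in all 8 mice, with a fall of 1.09 ± 0.13 (adjusted p = 0.0023). Aqp9, the channel through which hepatocytes take up glycerol, fell by 1.23 ± 0.12 (adjusted p = 0.0015), and Gpd2, the mitochondrial glycerol 3-phosphate dehydrogenase, by 1.29 ± 0.20 (adjusted p = 0.0052). G6pc3, the broadly expressed relative of G6pc, was higher by 0.49 ± 0.14 (adjusted p = 0.034), but by 0.25 (adjusted p = 0.17) with arrays set to their medians, and it was not called with the slide as a random block (adjusted p = 0.084). Scaled to the hepatocyte markers, 7 genes of this list were higher and 3 lower, Slc2a2 (-0.63), Aqp9 (-0.77) and Gpd2 (-0.83) being the 3. Under this scaling 7974 of all 15844 genes were higher and 413 lower.

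Of 22 tested genes of glycogen metabolism outside the 9, 6 were higher and 0 lower by limma, with a median of 0.06. The share of 6 in 22 is near the 21.7% of all genes called higher. Glycogenin (Gyg), which primes the glycogen particle, rose by 0.50 ± 0.09 (adjusted p = 0.0085). Ppp1r3d rose by 1.08 ± 0.14 (adjusted p = 0.0032) and Ppp1r3c by 0.91 ± 0.19 (adjusted p = 0.013); both encode subunits that bring protein phosphatase 1 to glycogen. The direction of the list depended on the scaling, since with arrays set to their medians 3 genes were higher and 8 lower. Of all 15844 genes 2384 were then higher and 6335 lower, and Gyg had 0.25 (adjusted p = 0.053). With normexp background correction Ppp1r3d was at 0.53 (adjusted p = 0.0053), and with the slide as a random block Ppp1r3c was not called (adjusted p = 0.059).

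Of 23 hormone receptors and transcriptional regulators of glucose output 10 were lower and none was higher, against 17.4% and 21.7% of all genes. The median of the list was -0.28. The insulin receptor substrate Irs2 read -0.75 and -0.46 in AKP::Keap1 males, 0.68 and 0.98 in AKP males, 1.67 and 0.95 in AKP::Keap1 females and 2.52 and 3.11 in AKP females. Genotypes were apart within each sex and females were above males of their own genotype, and Irs2 fell by 1.47 ± 0.22 (adjusted p = 0.0044). The insulin receptor Insr fell by 0.87 ± 0.13 (adjusted p = 0.0050) and Irs1 by 0.78 ± 0.13 (adjusted p = 0.0059), and the smallest difference among their probes was -0.60 for Insr and -0.28 for Irs1. Scaled to the hepatocyte markers the list had 5 higher and 2 lower genes, where 7974 of all 15844 genes were higher and 413 lower. Insr was then at -0.41 (adjusted p = 0.049). Irs1 was not called under this scaling (-0.32, adjusted p = 0.16) or with unscaled values (-0.47, adjusted p = 0.067).

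Of 6 genes of hepatic glycolysis and fructose use 4 were lower, against 17.4% of all genes, with a median of -0.46. Among the 4 was Gckr (-0.47 ± 0.09, adjusted p = 0.010), the regulatory protein that inhibits glucokinase. Pyruvate kinase of the liver (Pklr), which undoes the work of Pcx and Pck1, read -1.32 and -0.91 in AKP::Keap1 males, 0.81 and 0.51 in AKP males, -1.90 and -1.77 in AKP::Keap1 females and 0.19 and 0.22 in AKP females. It was apart by genotype in all 8 mice and fell by 1.91 ± 0.13 (adjusted p = 0.00062). Ketohexokinase (Khk) fell by 0.66 ± 0.10 (adjusted p = 0.0047) and the liver phosphofructokinase Pfkl by 0.46 ± 0.08 (adjusted p = 0.0065), but neither was called when scaled to the hepatocyte markers (-0.20, adjusted p = 0.19 for Khk and 0.0041, adjusted p = 0.98 for Pfkl). Khk was also not called with the slide as a random block (adjusted p = 0.051), nor Pfkl with unscaled values (-0.15, adjusted p = 0.35). Genes of glucose making and of glucose use were therefore both among the lower genes.

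**Figure D4:**
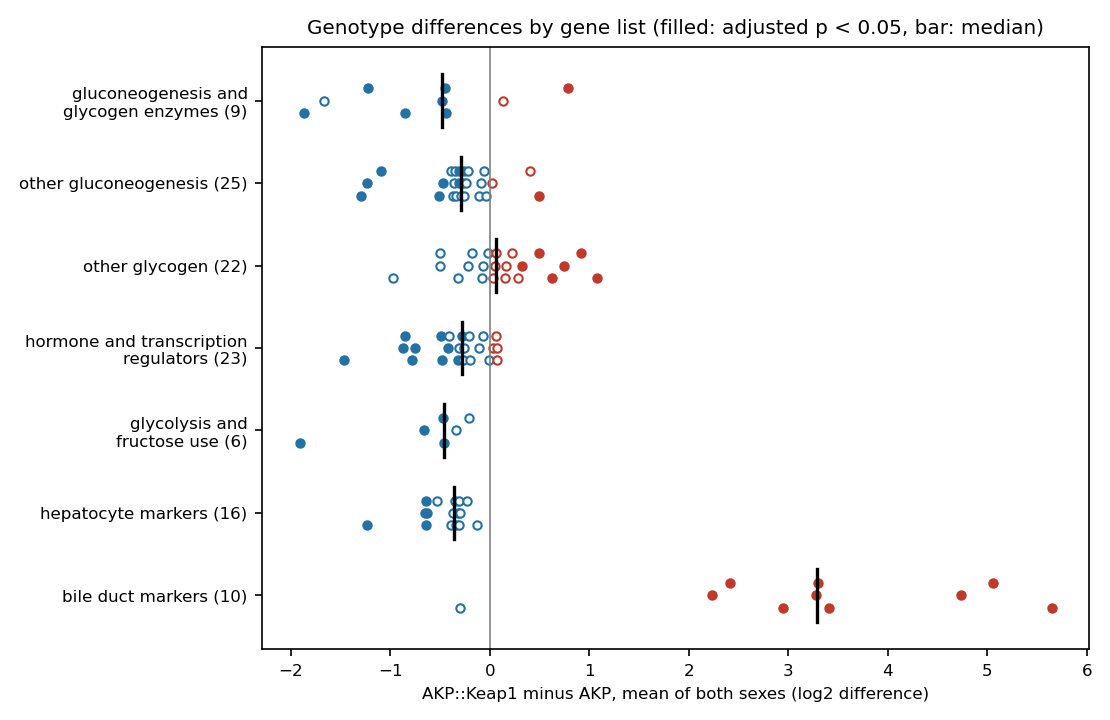
Genotype differences (horizontal axis, AKP::Keap1 minus AKP, mean of both sexes, log2) of the 9 genes and of 6 lists, with the number of genes tested in brackets. Points are genes, filled where called at an adjusted p below 0.05, red above and blue below 0, and the black bars are list medians, from -0.48 for the 9 genes to 3.29 for the bile duct markers.

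The patterns most like those of the 3 genes with the widest range of group means were looked up among 13525 genes well above background on all arrays. Over the 8 arrays G6pc was closest to Tmem170 (Pearson r = 0.978) and Vmn1r194 (0.973), Ppargc1a to Mrpl9 (0.994) and Decr1 (0.987), and Gys2 to Zc3h18 and Nr2f1 (0.985 each). With 8 arrays in 4 groups these values mainly describe shared group means.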

How the data were processed

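Scanner files of 8 arrays, 1 per mouse, were used. Per the file headers, the deposited intensity values were extracted with Agilent software, version 10.7.3.1 of Feature Extraction, and annotated on mm9, while the submitters' processing notes give 10.1. The processed signal, already background-subtracted, was equal to the deposited series matrix in 355176 of 355176 values. Of 44397 spots per array, 1377 controls and the outlier spots were left out. Spots of a probe were averaged on the log2 scale, and accessions were matched to RefSeq symbols (GRCm38.p6), which named 26055 of 39429 probes with 1 symbol and left 13374 unnamed. Log2 values minus each array's 75th percentile entered limma 3.58.1 (R 4.3.3) with 1 mean per group. A probe was kept if well above background on at least 2 arrays, and the brightest stood for its gene. The fit was tested on simulated data. Normexp (offset 50) used the median foreground signal, because the mean signal that had been planned is no column of the files used.

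The 9 genes and all lists were chosen with earlier results of these data known. All 9 are named. Of each other list, up to 3 higher and 3 lower genes with the smallest adjusted p are named. For the 3 genes with the widest range of group means, the 2 genes with the most similar pattern are named, without clone or predicted names. Alternatives covered background correction, scaling, the filter, probe choice, variance model, slide, replicate number and single mice. The oncogene's name is not reported here.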

Additional observations from a re-analysis of the deposited data

How the results depend on the processing

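Each difference was recomputed under the alternatives that apply to it, 19 for the contrasts of genotype and sex and 18 for the interaction. Over both sexes, 141 of 171 results of the 9 genes kept their direction and their side of the threshold. Some alternatives called more of the 9. Over both sexes 1 was higher and 7 lower with normexp and with array medians. The same counts came with only probes well above background on every array and with the trended and robust variance model. In males 6 were lower with array medians, that filter or that variance model. In females 1 was higher and 3 lower with normexp, array medians or quantile normalization. For sex 4 were lower with normexp, array medians, unscaled values, that filter or that variance model. Counts of the 9 genes called moved from 7 to 4 when arrays were scaled to the hepatocyte markers, and were 5 to 7 without 1 mouse in turn. In males the count moved from 5 to 3 with quantile normalization, with unscaled values and with the hepatocyte markers, and was 0 to 5 without 1 mouse in turn. In females it moved from 3 to 1 with unscaled values, with the arrays of females only and with the hepatocyte markers, and was 0 to 3 without 1 mouse in turn. The interaction had 1 of the 9 called with normexp background correction and with arrays set to their medians, and 0 in each fit without 1 mouse. For sex the count moved from 3 to 1 with quantile normalization, without a filter on dim probes and with the hepatocyte markers, to 0 with the slide as a random block, and to 1 to 2 without 1 mouse in turn.

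Counts over all genes moved too. By genotype 6184 became 3284 with the slide as a random block and 4133 to 5487 without 1 mouse. The split of 3435 higher against 2749 lower became 2384 against 6335 with arrays set to their medians, 2188 against 3792 with normexp, 5710 against 646 unscaled and 7974 against 413 with the hepatocyte markers. In males 4587 became 8191 with arrays set to their medians, 7512 with the hepatocyte markers and 1026 to 4386 without 1 mouse. In females 3400 became 1223 with the arrays of females only and 723 to 2825 without 1 mouse. The interaction's 265 became 1047 with array medians, 160 with quantile normalization, 460 unscaled, 94 without the filter, 598 with a trended and robust variance model, 56 with the replicate block, 416 with the hepatocyte markers and 0 to 29 without 1 mouse. For sex 3402 became 305 with the slide block, 1899 with the hepatocyte markers and 1093 to 2227 without 1 mouse. Values in which the direction turned had no call on either side except Fbp1, Slc37a4 and Pygl with the hepatocyte markers. By genotype Fbp1 was then at 0.013 over both sexes and 0.026 in males, Slc37a4 at 0.018 over both sexes and Pygl at 0.063 in males. With arrays set to their medians Pcx was at -0.11 over both sexes, -0.15 in males and -0.074 in females, and Slc37a4 at -0.045 in females. With quantile normalization Pcx was at -0.062 and Slc37a4 at -0.032 in females, and without 1 mouse Pcx in females was at -0.015 to 0.14. In the interaction array medians gave Pck1 0.065, Pcx 0.080 and Gys2 0.12, the mean over probes gave Gys2 0.064, quantile normalization gave Pygl -0.19, unscaled values gave Fbp1 -0.023 and Pygl -0.16, and the hepatocyte markers gave Fbp1 -0.027 and Pygl -0.17. Without 1 mouse in turn the interaction was -1.94 to 0.21 for G6pc, -0.45 to 0.16 for Pck1 and -0.41 to 0.22 for Gys2. For sex Pck1 was at -0.067 unscaled and -0.053 to 0.25 without 1 mouse, and Fbp1 (0.13) and Pcx (0.10) turned with quantile normalization. The cause of these turns was not tested. Splits of all genes within contrasts also depended on the scaling. In males 2606 higher against 1981 lower became 1507 against 4248 with normexp and 7386 against 126 with the hepatocyte markers. In females 1990 against 1410 became 1452 against 2155 with array medians, 1720 against 654 unscaled and 2700 against 504 with the hepatocyte markers. In the interaction 71 against 194 became 212 against 150 with normexp, 806 against 241 with array medians, 15 against 445 unscaled and 16 against 400 with the hepatocyte markers. For sex 1569 against 1833 became 1204 against 2930 with array medians and 614 against 3077 unscaled.

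Replicate numbers 1 and 2 coincide with slide positions 3 and 4. Deviations of same-numbered mice, which share a number and a slide position, correlated at -0.16 to 0.12 between groups. With the replicate block the genotype count over all genes was 5655, and among the 9 genes the female call of Pck1 was lost (adjusted p = 0.060), the female difference of Ppargc1a was called (adjusted p = 0.049) and the sex call of Gbe1 was lost (adjusted p = 0.062). The number of arrays, 2 per group, limits the precision of every value, and all 11 probes were well above background.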
